A study of Mus with 35 samples.

Results

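Dendrin (Ddn), the calcium/calmodulin-dependent kinase subunits Camk2a and Camk2b, neurogranin (Nrgn) and Map2 were followed in brain RNA of mice with substitutions in Hnrnph2. These 5 neuronal transcripts were grouped here as dendritic mRNAs, and whether each is carried into dendrites was not tested. They were taken by symbol, and all 5 were found among the 55573 rows of the expression table. Ddn was included because its level differed with the mutations in these same data, and the others as abundant transcripts of the same kind, so the contrast of mutant and wild-type (WT) mice given the control antisense oligonucleotide (ASO) is described here without a test for any of the 5. The mice were C57BL/6J males, either hemizygous for the P209L or the R206W substitution in the X-linked gene Hnrnph2, which encodes the RNA-binding protein hnRNP H2, or WT littermates. Every mouse, controls included, received 1 injection of 30 µg of ASO into the brain ventricles at postnatal day 2 to 4. The ASO was directed at Hnrnph2 or was a control ASO. In each of 3 cohorts the groups were mutants with the Hnrnph2 ASO, mutants with the control ASO, WT with the Hnrnph2 ASO and WT with the control ASO. A pair of cohorts carried P209L and was sampled at 8 or at 3 weeks, and the R206W cohort was sampled at 3 weeks. There were 35 libraries in 12 groups of 3, with only 2 for 3-week P209L mice given the Hnrnph2 ASO. The titles carry a different animal name for each library, but nothing in the labels states outright that each came from its own animal. The p-values therefore measure the spread between libraries, which may be technical.

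Most neuronal mRNAs stay in the cell body, while a smaller set is packed with RNA-binding proteins, moved along microtubules and translated near synapses. Dendrin is a proline-rich protein of the postsynaptic density of forebrain neurons and is also known from the podocytes of the kidney. CaMKIIα and CaMKIIβ, the products of Camk2a and Camk2b, assemble into the kinase that is abundant at excitatory synapses and needed for long-term potentiation. Neurogranin binds calmodulin when calcium is low, and MAP2 stabilises dendritic microtubules. RNA of bulk tissue shows how much of a transcript is present, not where in the cell it lies.

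Values are in TPM, in which transcript length is corrected for and all libraries sum to 1 total. Read depth is therefore unknown. The targeted gene followed its labels, with Hnrnph2 at 6.95 to 26.7 TPM in libraries with the Hnrnph2 ASO and at 88.2 to 117 TPM in libraries with the control ASO. The labels give whole brain in one place and dissected cortex in another. Cortical excitatory markers were present in every library (Slc17a7 at 536 to 849 TPM), and so were the cerebellar granule cell markers Cbln3 (47.6 to 145 TPM) and Gabra6 (32.4 to 155 TPM). The podocyte markers Nphs1 and Wt1 lay between 0.02 and 1.5 TPM. Among the libraries, WT control ASO replicate 3 at 8 weeks stood apart from the rest of its group in Ddn, Camk2a and Map2. WT Hnrnph2 ASO replicate 3 of the P209L cohort at 3 weeks lay farthest from its group over all genes.

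All 5 transcripts were abundant in every library. Nrgn (mm10, 9:37544493-37552745) was the highest, at 912 to 1364 TPM with a median of 1152. Camk2a (18:60925307-60988152) ranged over 482 to 925 TPM with a median of 651, and Camk2b (11:5969629-6066357) over 349 to 503 TPM with a median of 410. Map2 (1:66175202-66442583) ranged over 242 to 447 TPM with a median of 309. Ddn (15:98803782-98807925) ranged most widely, from 187 to 788 TPM with a median of 322, so that its highest library was 4.21 times its lowest. The same ratio lay between 1.44 for Camk2b and 1.92 for Camk2a. Ddn was therefore between the 84th and the 743rd most abundant gene of a library.

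The order of the 12 groups differed between Ddn and the others. For Ddn the mutants with the control ASO came first, with P209L at 3 weeks (mean 758 TPM) and at 8 weeks (751 TPM) overlapping each other. Then came R206W with the control ASO (566 TPM), apart from the groups on either side. P209L with the Hnrnph2 ASO and WT of the P209L cohorts followed in an unbroken chain of overlapping neighbours between 388 and 299 TPM. All R206W-cohort groups other than the mutants with the control ASO came last, at 259 TPM in R206W with the Hnrnph2 ASO, 224 TPM in WT with the Hnrnph2 ASO and 204 TPM in WT with the control ASO. For Camk2a, Nrgn and Map2 every neighbouring pair in the order of groups overlapped. For Camk2b, 1 neighbouring pair did not, with P209L control ASO at 8 weeks (394 TPM) above WT Hnrnph2 ASO at 8 weeks (382 TPM).

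In mutants with the control ASO, Ddn was between 2.06 and 2.77 times as high as in WT with the control ASO, in all 3 cohorts. At 8 weeks Ddn had 788, 699 and 767 TPM in P209L with the control ASO, against 288, 321 and 484 TPM in WT with the control ASO. The P209L libraries were all above the WT libraries, of which 1, replicate 3, was clearly the highest. At 3 weeks Ddn had 779, 732 and 763 TPM in P209L with the control ASO, against 297, 295 and 305 TPM in WT with the control ASO. In the R206W cohort it had 518, 512 and 669 TPM in R206W with the control ASO, against 215, 187 and 209.8 TPM in WT with the control ASO. The groups did not overlap in any cohort, and the P209L and R206W libraries were alike in standing well clear of their WT littermates. On the scale of log2(TPM + 1) the differences were 1.08 at 8 weeks, 1.34 at 3 weeks and 1.46 in the R206W cohort, with an average of 1.29. Without WT control ASO replicate 3 the value at 8 weeks was 1.3. Over all genes, 4.28% were called in this contrast (2.55% higher and 1.73% lower), and 0.991% lay higher in all 3 cohorts without overlap. Nothing is read from these shares for Ddn, which was chosen on the contrast. In the same libraries 4 of 7 cerebellar granule cell markers (list median -0.25) and 3 of 6 oligodendrocyte markers (list median -0.20) were called lower in the mutants (2 to 4 and 2 or 3 called when each library was left out), and with the mean log2 level of Cbln3 and Gabra6 as a covariate (the cerebellar covariate below) the average for Ddn was 1.09. Of 5 Purkinje cell markers, 1 was called higher and 0 lower (list median -0.09). Fewer cells of a type and less RNA per cell cannot be told apart in bulk tissue, here or below.

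**Figure D1:**
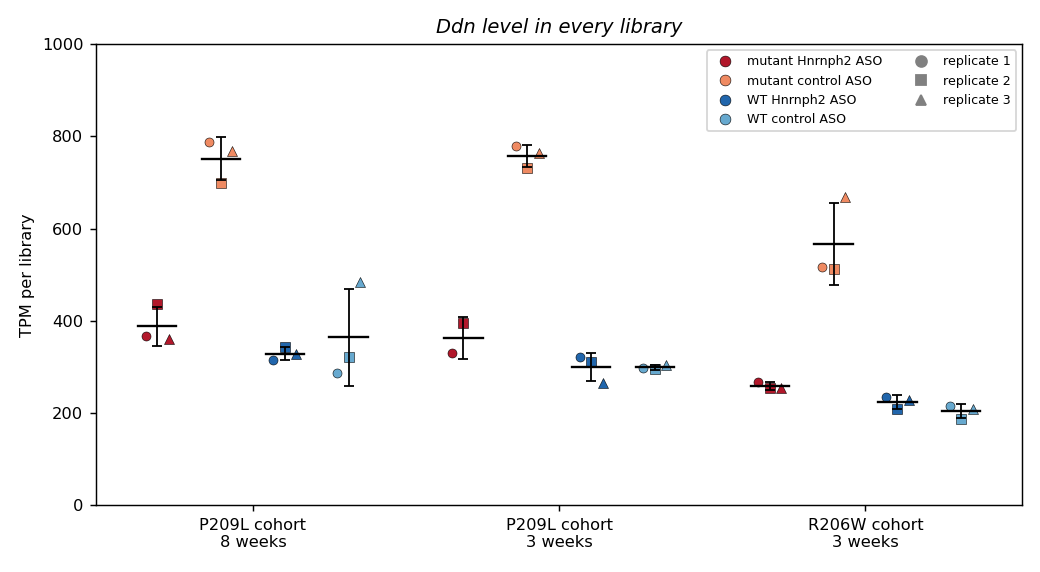
Ddn level (TPM, linear axis from 0) in each of 35 libraries, by cohort, with mutants left of WT and the Hnrnph2 ASO left of the control ASO; symbols are replicates, the bar is the mean and the whiskers the SD. Mutants with the control ASO lie between 512 and 788 TPM, above every other library.

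Ddn fell in mutants given the Hnrnph2 ASO. At 8 weeks it had 366, 437 and 360.0 TPM in P209L with the Hnrnph2 ASO, against the 788, 699 and 767 TPM of P209L with the control ASO. At 3 weeks it had 330.0 and 395 TPM in P209L with the Hnrnph2 ASO (n = 2), against 779, 732 and 763 TPM in P209L with the control ASO. In R206W it had 268, 254 and 254 TPM with the Hnrnph2 ASO, against 518, 512 and 669 TPM with the control ASO. The treated libraries lay below all control libraries in every cohort, and the group means differed by -48.4% at 8 weeks, -52.1% in P209L at 3 weeks and -54.3% in R206W. Averaged over the cohorts the difference was -1.05 on the log2(TPM + 1) scale (SE 0.076), and limma, a linear model fitted over all genes, gave an adjusted p of 2.96e-10. A two-sided exact permutation test within cohorts gave 0.00025, the smallest value it can give. Of all 16556 genes tested, 2.50% were called in this contrast (1.19% higher and 1.31% lower), and 0.791% lay lower in all 3 cohorts without overlap. The mutant control-ASO libraries are the ones in which Ddn was seen to be high when it was chosen, so this test shares those libraries with the choice.

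Within single cohorts the fall was -1.07 in P209L at 3 weeks (adjusted p 0.00095, limma) and -1.12 in R206W (adjusted p 0.00045, limma), where 0.0969% and 0.0970% of genes were called. In both 3-week cohorts no stem of the animal names in the titles is shared between Hnrnph2 ASO and control ASO libraries, mutant or WT. Stem and ASO therefore cannot be told apart there. None is shared at 8 weeks either, though most names of that cohort do not recur between libraries. The fall at 8 weeks was -0.96 and narrowly missed the threshold (adjusted p 0.0572, limma, 0.0908% of genes called). It passed there with genes of at least 5 TPM only (0.042), with the fit restricted to the groups compared (0.0239) and with the cerebellar covariate (0.015). It did not pass when any of the 6 libraries was left out (adjusted p 0.0983 to 0.251, limma). The differences in size between cohorts were small, with the largest, 8 weeks against R206W, at 0.16 (95% interval -0.21 to 0.53).

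In WT mice Ddn did not move with the ASO by more than its spread. It had 314, 343 and 328 TPM with the Hnrnph2 ASO and 288, 321 and 484 TPM with the control ASO at 8 weeks, overlapping. At 3 weeks WT of the P209L cohort had 322, 311 and 265 TPM with the Hnrnph2 ASO and 297, 295 and 305 TPM with the control ASO, and WT of the R206W cohort had 236, 208 and 228 TPM with the Hnrnph2 ASO and 215, 187 and 209.8 TPM with the control ASO. Both pairs overlapped as well. The average difference was 0.01 (95% interval -0.14 to 0.16, adjusted p 0.985 by limma, exact permutation p 0.957). It shares the WT control libraries with the contrast that chose Ddn, and 0.187% of genes were called (0.0966% higher and 0.0906% lower). The ASO effect in mutants minus that in WT was -1.05 on average, a description, since it contains the contrast that chose Ddn.

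Mutants and WT that both had the Hnrnph2 ASO share no library with the contrast of mutants and WT given the control ASO. Ddn was chosen with earlier results of these data known, so the tests here may not be independent of that choice. With the Hnrnph2 ASO, Ddn stayed slightly higher in the mutants. The P209L libraries at 8 weeks (366, 437 and 360.0 TPM) were all above WT (314, 343 and 328 TPM), those at 3 weeks (330.0 and 395 TPM) above WT (322, 311 and 265 TPM), and R206W (268, 254 and 254 TPM) above WT (236, 208 and 228 TPM). The means differed by 18.0%, 21.1% and 15.5%. The average was 0.24 on the log2(TPM + 1) scale (SE 0.076), with an exact permutation p of 0.0005 for Ddn alone, unadjusted and 1 of 15 such tests, but limma over all genes did not call it (adjusted p 0.151). Of all genes, 0.163% lay higher in all 3 cohorts without overlap and 0.670% were called (0.278% higher and 0.393% lower). Cerebellar granule cell markers were lower in the same mutants, with 2 of 7 called, Cbln3 (-0.52, adjusted p 0.00956, limma) and Gabra6 (-0.49, adjusted p 0.034), and a list median of -0.24 (1 or 2 called when each library was left out). Their summed level was 327 to 505 TPM in P209L and 555 to 589 TPM in WT at 8 weeks, 392 to 519 TPM in P209L and 471 to 520.3 TPM in WT at 3 weeks, and 583 to 749 TPM in R206W and 739 to 829.8 TPM in WT. The summed level of cortical excitatory markers was higher in the same mutants without overlap in all 3 cohorts, with 0 of 9 called by limma, 2 at an unadjusted p under 0.05 and a list median of 0.13. It was 765 to 836 TPM in P209L and 727 to 760.2 TPM in WT at 8 weeks, 1076 to 1085 TPM in P209L and 838 to 996 TPM in WT at 3 weeks, and 958 to 1043 TPM in R206W and 869 to 934 TPM in WT. Slc17a7 made up most of this sum, with a median over all libraries of 736 TPM against 6.44 to 53.4 TPM for each other marker. The part of these cortical markers in the difference of Ddn was not tested. With the cerebellar covariate the difference of Ddn was 0.06 (adjusted p 0.962), and at 8 weeks it was -0.14. The genes of this covariate, Cbln3 and Gabra6, were themselves lower in these mutants. Such a fit therefore cannot separate the covariate from genotype, for Ddn or for other genes. For the Hnrnph2 ASO in mutants, where Ddn fell, limma called 0 of the 7 cerebellar granule cell markers (0 at an unadjusted p under 0.05) and their median was -0.02. Of 5 Purkinje cell markers 1 was called lower there, beside 2.50% of all genes called. Against WT with the control ASO, mutants with the Hnrnph2 ASO averaged 0.25 higher in Ddn, a description. With the cerebellar covariate that average was 0.03, and the value at 8 weeks was -0.18, against 0.12 without it.

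The lncRNA gene B130046B21Rik (15:98806315-98810380) overlaps Ddn by 1611 bases, and whether the counting used strand is not given in the sources used here, so reads of the overlap may not be separable. It had a mean of 16.5 TPM in P209L with the control ASO and 8.88 TPM in their WT littermates at 8 weeks, 18.3 TPM in P209L and 6.7 TPM in WT at 3 weeks, all with the control ASO, and 3.11 times as much in R206W as in WT (3.22 TPM). The average differences were 1.22 for mutants against WT with the control ASO and -0.86 for the Hnrnph2 ASO in mutants (adjusted p 0.00152, limma). It ran at a small fraction of Ddn's level and moved in the same direction. The other 7 genes tested within 100 kb (Arf3, Prkag1, Kmt2d, Fkbp11, Ccdc65, Rhebl1 and Wnt10b) were not called in either contrast.

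Camk2a, the α subunit of CaMKII, did not separate by genotype or ASO. At 8 weeks it had 613, 733 and 668 TPM in P209L with the Hnrnph2 ASO, 742, 677 and 661 TPM in P209L with the control ASO, 591, 683 and 639 TPM in WT with the Hnrnph2 ASO and 538, 535 and 925 TPM in WT with the control ASO. The last group holds both the lowest and the highest of these 12 libraries. At 3 weeks the P209L cohort had 697 and 774 TPM in P209L with the Hnrnph2 ASO, 737, 678 and 682 TPM in P209L with the control ASO, 715, 701 and 510.4 TPM in WT with the Hnrnph2 ASO and 704, 666 and 749.6 TPM in WT with the control ASO. In the R206W cohort it had 651, 589 and 507 TPM in R206W with the Hnrnph2 ASO, 539.9, 482 and 563 TPM in R206W with the control ASO, 531, 524 and 507 TPM in WT with the Hnrnph2 ASO, and 525, 491 and 492 TPM in WT with the control ASO. The groups overlapped within each cohort, and the R206W cohort was low as a whole. The Hnrnph2 ASO changed Camk2a by 0.05 in mutants (95% interval -0.12 to 0.23) and by -0.04 in WT (-0.21 to 0.13), and mutants with the ASO differed from WT with it by 0.15 (-0.03 to 0.32, adjusted p 0.508 by limma).

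Camk2b, the β subunit, which also binds actin, was the steadiest of the 5. Group means lay between 379 and 456 TPM. The Hnrnph2 ASO changed it by 0.04 in mutants (95% interval -0.04 to 0.12) and by 0.05 in WT (-0.03 to 0.13), and mutants with the Hnrnph2 ASO differed from WT with it by 0.05 (-0.03 to 0.13). At 8 weeks the 3 P209L libraries with the Hnrnph2 ASO (402, 409.7 and 396 TPM) were above the 3 WT libraries with it (383, 380.1 and 383 TPM), and these groups overlapped in the other cohorts. At 3 weeks both P209L libraries with the Hnrnph2 ASO (452 and 460.3 TPM) were above those with the control ASO (442, 425 and 439 TPM). Of all genes, 5.50% and 12.6% were higher without overlap in these pairs of groups. The ratio of Camk2a to Camk2b, which the length correction allows within a library, averaged 1.26 to 1.37 in the R206W-cohort groups and 1.45 to 1.76 in the groups of the P209L cohorts. No test of the ratio passed, with differences on the log2 scale of 0.09 for mutants against WT with the Hnrnph2 ASO, 0.02 for the ASO in mutants, -0.09 for the ASO in WT and 0.10 for 8 weeks against 3 weeks (two-sided exact permutation p from 0.215 to 0.757, 4 tests). The lowest ratio, 1.01, was that of WT Hnrnph2 ASO replicate 3 in the P209L cohort at 3 weeks.

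Nrgn, the calmodulin-binding neurogranin, had lower means in WT with the Hnrnph2 ASO than in WT with the control ASO in all 3 cohorts. At 8 weeks WT had 1047, 933 and 961 TPM with the Hnrnph2 ASO and 967, 1038 and 1217 TPM with the control ASO. At 3 weeks WT of the P209L cohort had 1138, 1235 and 1115 TPM with the Hnrnph2 ASO and 1212, 1364 and 1331 TPM with the control ASO, and WT of the R206W cohort had 1039, 1016 and 1152 TPM with the Hnrnph2 ASO and 1284, 1122 and 1238 TPM with the control ASO. The groups overlapped in each cohort. The average was -0.16 (95% interval -0.29 to -0.03), with an unadjusted exact permutation p of 0.008, 1 of 15 such tests, while limma over all genes gave an adjusted p of 0.389. In mutants the ASO effect was 0.06 (-0.07 to 0.19). Mutants with the Hnrnph2 ASO differed from WT with it by 0.13 (95% interval 0.00 to 0.27, adjusted p 0.398 by limma), and by -0.07 with the cerebellar covariate.

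Map2, the dendritic microtubule protein, gave overlapping groups nearly throughout. At 8 weeks its means were 329 ± 66.3 TPM in P209L with the Hnrnph2 ASO, 351 ± 47.6 in P209L with the control ASO, 356 ± 54.2 in WT with the Hnrnph2 ASO and 335 ± 103 in WT with the control ASO (SD, n = 3 each). In the P209L cohort at 3 weeks they were 331 ± 3.98 TPM in P209L with the Hnrnph2 ASO (n = 2), 343 ± 36.7 in P209L with the control ASO, 364 ± 25.9 in WT with the Hnrnph2 ASO and 359 ± 50.02 in WT with the control ASO. In the R206W cohort they were 264 ± 28.0 TPM in R206W with the Hnrnph2 ASO, 268 ± 24.6 in R206W with the control ASO, 265 ± 21.3 in WT with the Hnrnph2 ASO and 273 ± 32.2 in WT with the control ASO. At 3 weeks both P209L libraries with the Hnrnph2 ASO (334 and 328 TPM) were below the WT libraries with it (390.0, 338 and 363 TPM), as were 16.8% of all genes. The average ASO effect was -0.06 in mutants (95% interval -0.26 to 0.14) and 0.03 in WT (-0.16 to 0.23), and mutants with the ASO differed from WT with it by -0.09 (-0.29 to 0.11).

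Of the 5 transcripts, 1 was called for the Hnrnph2 ASO in mutants, Ddn, and 0 for mutants against WT with the Hnrnph2 ASO or for the ASO in WT (limma averages). The shares of all genes called in these contrasts, in that order, were 2.50%, 0.670% and 0.187%. At an unadjusted p under 0.05 those last 2 contrasts held 2 (Ddn and Nrgn) and 1 (Nrgn) of the 5, beside 12.4% and 9.49% of all genes. With the control ASO the other 4 differed between mutants and WT by an average of 0.05 for Camk2a, 0.07 for Camk2b, -0.08 for Nrgn and 0.00 for Map2, given as a description. With the cerebellar covariate the same averages were -0.09 for Camk2a, 0.02 for Camk2b, -0.31 for Nrgn and 0.03 for Map2.

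**Figure D2:**
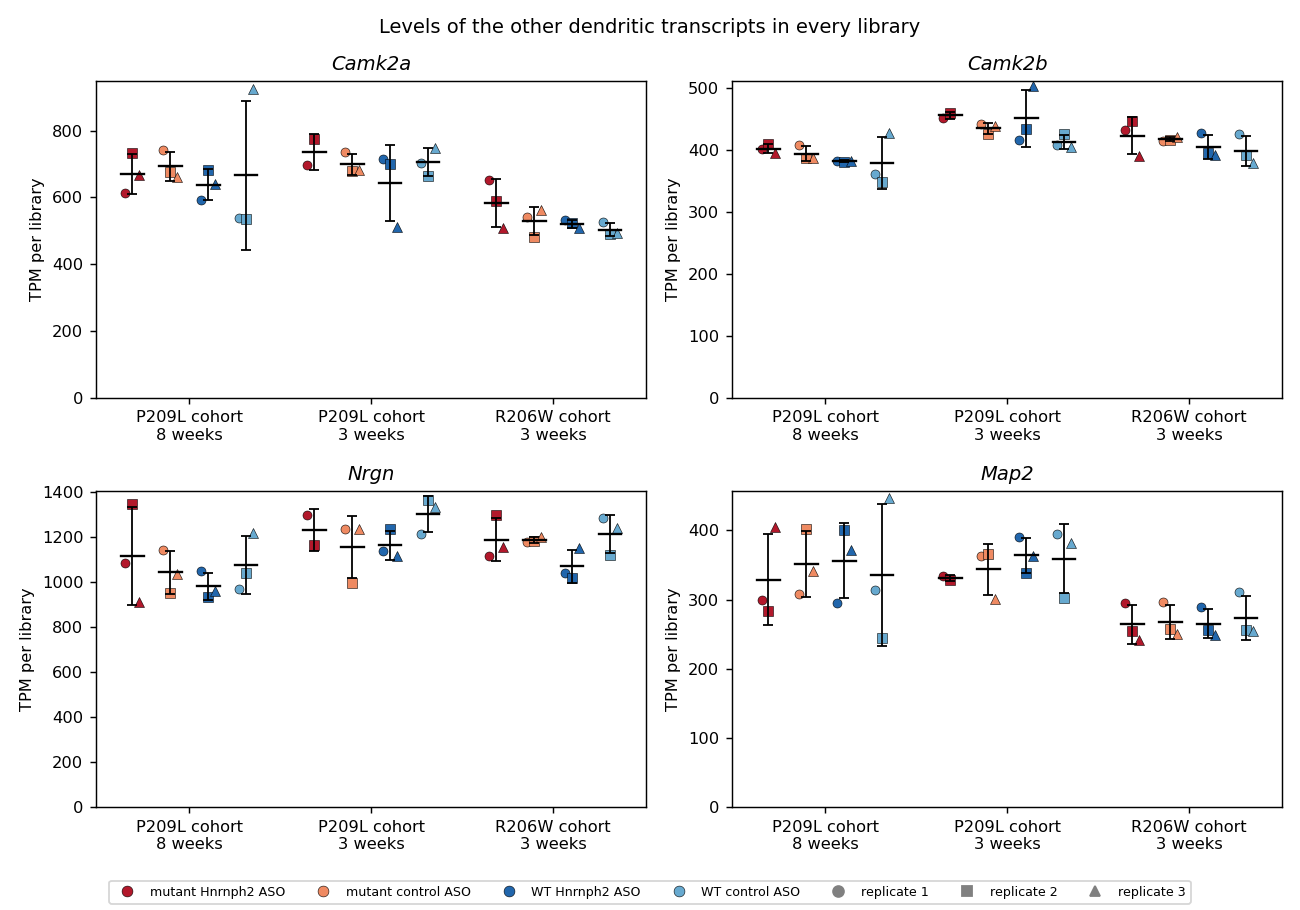
Levels of Camk2a, Camk2b, Nrgn and Map2 (TPM, linear axes from 0) in each of 35 libraries, by cohort, with mutants left of WT and the Hnrnph2 ASO left of the control ASO; symbols are replicates, bars means and whiskers the SD. Groups overlap within cohorts for most pairs, and Camk2a and Map2 are low in the R206W cohort as a whole.

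**Figure D3:**
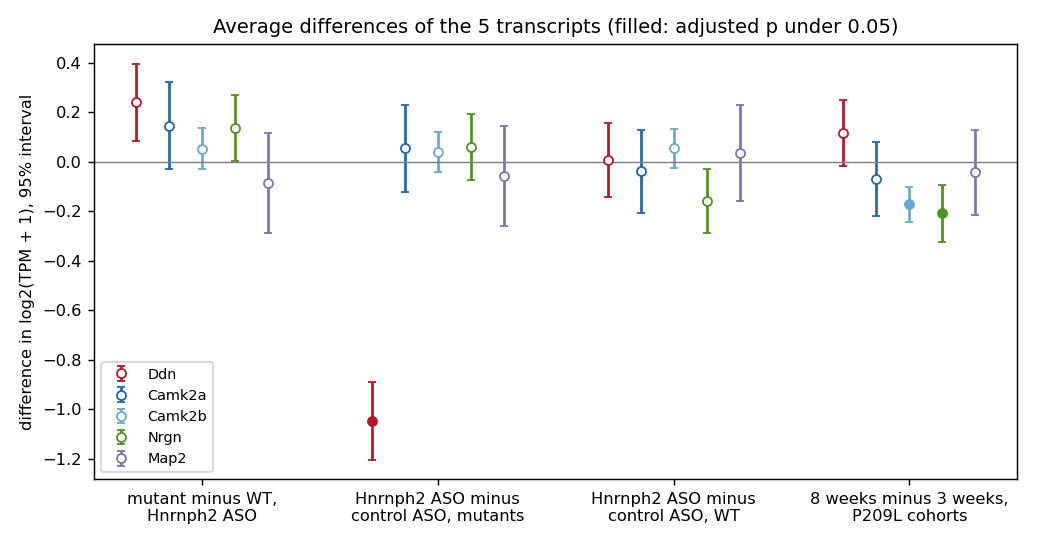
Average differences of the 5 transcripts on the log2(TPM + 1) scale with 95% intervals, in 4 contrasts; a filled point marks a limma adjusted p under 0.05. Ddn at -1.05 for the Hnrnph2 ASO in mutants stands far below the rest, and Camk2b and Nrgn are filled for 8 weeks against 3 weeks.

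The R206W cohort and the P209L cohort of the same age differed in level for some of the transcripts, a description, since cohort, mutation and library set cannot be told apart. Camk2a ranged over 482 to 651 TPM in the R206W cohort and 510.4 to 774 TPM in the P209L cohort at 3 weeks, and Map2 over 242 to 311 TPM and 301 to 394 TPM in those cohorts. In WT, Ddn had 187 to 236 TPM in the R206W cohort and 265 to 322 TPM in the P209L cohort at 3 weeks. Cerebellar granule cell markers summed to 549.9 to 952 TPM in the R206W cohort and 392 to 593 TPM in the P209L cohort at 3 weeks, and their part in these differences was not tested.

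Between 8 weeks and 3 weeks in the P209L cohorts, Camk2b and Nrgn were lower at 8 weeks. Age and cohort cannot be told apart, and 42.1% of all genes were called (15.5% higher and 26.6% lower). Camk2b fell by 0.17 on the log2(TPM + 1) scale (SE 0.034, adjusted p 0.000199 by limma), with group means of 379 to 402 TPM at 8 weeks and 413 to 456 TPM at 3 weeks. Nrgn fell by 0.21 (SE 0.056, adjusted p 0.00366 by limma), with group means of 981 to 1114 TPM at 8 weeks and 1155 to 1302 TPM at 3 weeks. With the replicate number as a block neither was called (adjusted p 0.058 for Camk2b and 0.15 for Nrgn, limma). Replicate numbers do not link libraries of different cohorts, so the block cannot decide whether these age calls hold. The call of Nrgn was lost with the cerebellar covariate (-0.09, adjusted p 0.197). Ddn differed by 0.12 (adjusted p 0.154 by limma), and it was called with the cerebellar covariate (0.22, adjusted p 0.0171) or without WT control ASO replicate 1 at 8 weeks (0.15, adjusted p 0.0435). Camk2a differed by -0.07 (adjusted p 0.471) and was called without WT control ASO replicate 3 at 8 weeks (-0.13, adjusted p 0.0407). Map2 differed by -0.04 (adjusted p 0.706). In the same libraries all 6 oligodendrocyte markers were lower at 8 weeks, with sums of 5066 to 7213 TPM at 8 weeks and 11110.0 to 14876 TPM at 3 weeks. Of the 9 cortical excitatory markers 5 were called lower. The part of these markers in the values above was not tested.

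A list of 24 other dendritic mRNAs was set beside the 5, together with proteins that bind dendrin, calmodulin and CaMK genes, microtubule-associated proteins and factors of dendritic RNA transport. In mutants against WT with the control ASO, 3 of 24 dendritic mRNAs were called higher and 0 lower, beside 4.28% of all genes called (list median 0.01, all genes 0.01). They were Ppp1r9b, which encodes spinophilin, an actin-binding protein of dendritic spines (1.14), Shank1, a postsynaptic scaffold (0.82), and Dlg4, which encodes PSD-95 (0.18). With the Hnrnph2 ASO in mutants 4 of 24 were called lower, Ppp1r9b (-1.07), Shank1 (-0.86), Dlg4 (-0.18) and the potassium channel Kcnd2 (-0.21), and 2 higher, Psd (0.20) and Dlgap3 (0.19), beside 2.50% of all genes called and with a list median of -0.02. The count of 6 was 2 without P209L Hnrnph2 ASO replicate 2 at 3 weeks. It was 3 without P209L control ASO replicate 2 at either age, P209L Hnrnph2 ASO replicate 2 at 8 weeks or R206W control ASO replicate 1. With libraries rescaled by median ratios the calls were 3 higher and 1 lower in mutants with the control ASO, and 0 higher and 4 lower for the Hnrnph2 ASO in mutants, so the calls of Psd and Dlgap3 depend on the scaling. These contrasts share the mutant control libraries. With the Hnrnph2 ASO, mutants against WT gave 0 of 24 called by limma (4 at an unadjusted p under 0.05, list median 0.02), and the ASO in WT gave 0 of 24 (3 at an unadjusted p under 0.05). These shares are near the 12.4% and 9.49% of all genes at that p. The 24 were chosen with results of these data known. Beside them, Fxr2, an FMRP relative, was 0.17 higher in mutants with the control ASO (adjusted p 0.00304, limma) and fell with the Hnrnph2 ASO in mutants (-0.22, adjusted p 0.000271, limma). It was the 1 called gene of 13 tested in the transport list in each of these contrasts. The calmodulin and CaMK list of 13 had Gap43 lower with the ASO in mutants (-0.17, adjusted p 0.0134, limma) and Pcp4 lower with the ASO in WT (-0.21, adjusted p 0.0486, limma). No gene of that list was called for the ASO in mutants without P209L Hnrnph2 ASO replicate 2 at 3 weeks. For the ASO in WT none was called with median-ratio rescaling, the replicate block or the cerebellar covariate, or when any of 13 of the 18 libraries was left out. None of the 6 dendrin partners and none of the 7 microtubule-associated proteins was called by limma in these contrasts, with at most 1 of 6 and 2 of 7 at an unadjusted p under 0.05.

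**Figure D4:**
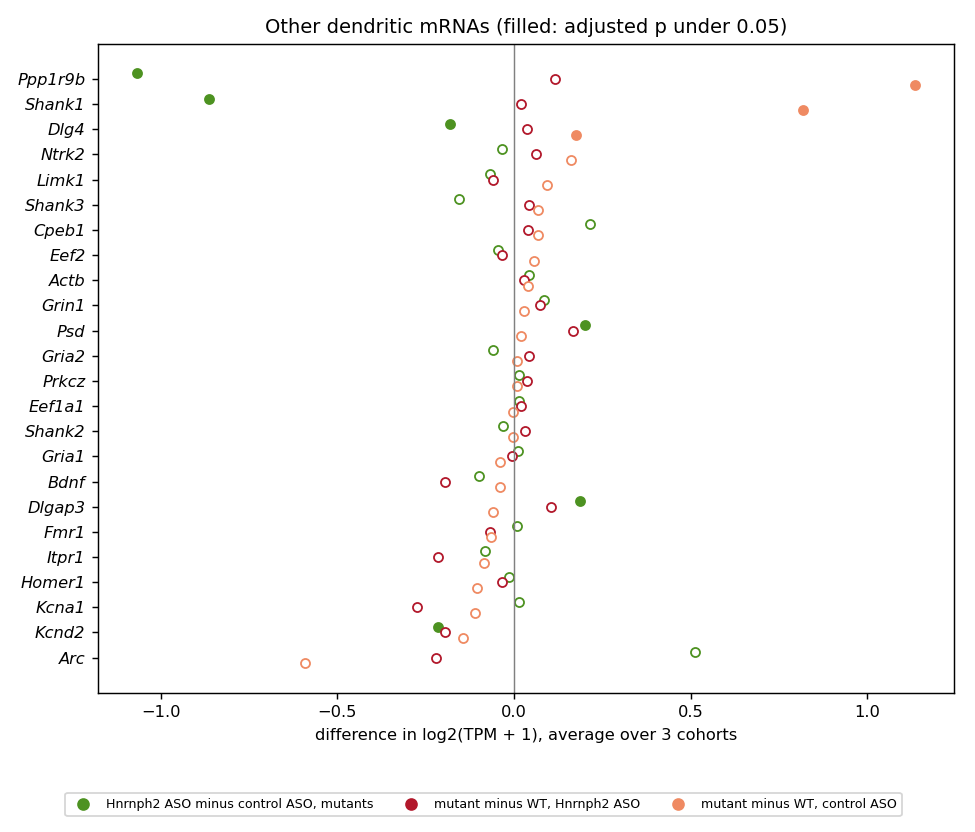
Average differences of the 24 other dendritic mRNAs (log2(TPM + 1) scale, horizontal axis) for the Hnrnph2 ASO in mutants, for mutants against WT with the Hnrnph2 ASO and for mutants against WT with the control ASO; a filled point marks an adjusted p under 0.05. Ppp1r9b (1.14 and -1.07) and Shank1 (0.82 and -0.86) lie far from 0 in opposite directions, and most others lie near 0.

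Between 8 weeks and 3 weeks 8 of the 24 dendritic mRNAs were called lower and 1 higher, beside 42.1% of all genes called. Grin1, an NMDA receptor subunit (-0.33), Dlgap3 (-0.28), Dlg4 (-0.25) and Actb (-0.17) had the smallest p among those lower, and Itpr1, named after its value was seen, was the 1 higher (0.54). With libraries rescaled by median ratios 7 were called lower and 2 higher. Of the 13 calmodulin and CaMK genes 2 were called higher and 4 lower, among them Calm3 (-0.17), Pcp4 (-0.17), Camk4 (-0.39) and Camkk1 (0.25). Of the 7 microtubule-associated proteins 3 were called lower, Map6 (-0.26), Map7 (-0.17) and Dcx (-0.57), while median-ratio rescaling gave 2 higher and 2 lower. Of the 6 dendrin partners Actn1 (-0.25) and Actn4 (-0.13) were called lower. Of the 13 transport genes tested 3 were called higher and 2 lower, among them the kinesin motors Kif5a (0.30), Kif5b (0.31) and Kif5c (-0.24), and Purb (-0.23). Median-ratio rescaling gave 5 higher and 2 lower for the transport genes and 3 higher and 2 lower for the calmodulin and CaMK genes. The replicate block gave 1 higher and 3 lower for the transport genes, but replicate numbers do not link the cohorts, so it decides nothing here.

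The genes most like Ddn across the 35 libraries, after subtraction of each cohort's mean, were Ppp1r9b (Pearson r 0.97), Brsk1 (0.95), Foxo4 (0.94), Tnpo2 (0.94) and Adra1b (0.93), as a description over 13927 genes. None of the other 4 transcripts was close to Ddn by this measure, with r of 0.32 for Camk2a, 0.24 for Camk2b, 0.05 for Nrgn and 0.04 for Map2. Differences between groups stay in this measure, among them the contrast that chose Ddn. A gene with the same group difference therefore scores high by construction, and a gene without it scores low. The closest genes to Camk2a were Chn1 (0.92), Kalrn (0.87) and Fbxl16 (0.87), to Camk2b Kif17 (0.90), Zfp512b (0.88) and Pde2a (0.85), to Nrgn Ttc9b (0.82), Sept5 (0.82) and Cyp46a1 (0.77), and to Map2 Ids (0.96), Gsk3b (0.95) and Lmbrd2 (0.95).

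Once the group means were removed, Ddn followed Camk2a from library to library. Pearson's r was 0.84 and Spearman's rho 0.79 over 35 libraries (permutation p within groups 4e-05 and 3e-05, adjusted over 20 relations 0.0004 and 0.0003). Without the 2 libraries farthest from the median in Ddn r was 0.71, and without WT control ASO replicate 3 at 8 weeks it was 0.67. Within cohorts r was 0.94 at 8 weeks, 0.88 for P209L at 3 weeks and 0.49 for R206W. Camk2a in turn followed the mean of 9 cortical excitatory markers (r 0.82, rho 0.82, permutation p 1e-05 for both, the smallest they can give, adjusted 0.0002), with r from 0.62 to 0.95 within cohorts, 0.76 without the 2 farthest libraries and 0.61 without WT control ASO replicate 3 at 8 weeks. Ddn followed those markers too (r 0.70, rho 0.70, permutation p 0.0122 and 0.00011, adjusted 0.0406 and 0.000733), with r from 0.45 to 0.82 within cohorts, 0.55 without the 2 farthest and 0.39 without WT control ASO replicate 3 at 8 weeks. So did Map2 (r 0.70, rho 0.54, permutation p 0.00239 and 0.00799, adjusted 0.0159 and 0.03995). After adjustment Camk2b (r 0.60) and Nrgn (r 0.38) did not pass. With the mean of Cbln3 and Gabra6, Nrgn gave r -0.64 and rho -0.52 (permutation p adjusted 0.0406 and 0.0653). Ddn gave r -0.48 and rho -0.37 with it (permutation p adjusted 0.0878 and 0.179), with r from -0.75 at 8 weeks to 0.47 for P209L at 3 weeks. Ddn and Nrgn gave r 0.51 and rho 0.41 (permutation p 0.0102 and 0.0358, adjusted 0.0406 and 0.102, r 0.39 without the 2 farthest), with r from 0.09 to 0.71 within cohorts. Ddn and Camk2b gave r 0.37 and rho 0.34 (permutation p 0.298 and 0.117, adjusted 0.351 and 0.181, r 0.07 without the 2 farthest), with r of 0.88 at 8 weeks, -0.62 for P209L at 3 weeks and 0.29 for R206W. The relation of Ddn and Map2 did not pass (r 0.29, rho 0.14, permutation p 0.497 and 0.496, adjusted 0.523 and 0.522, r 0.02 without the 2 farthest).

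**Figure D5:**
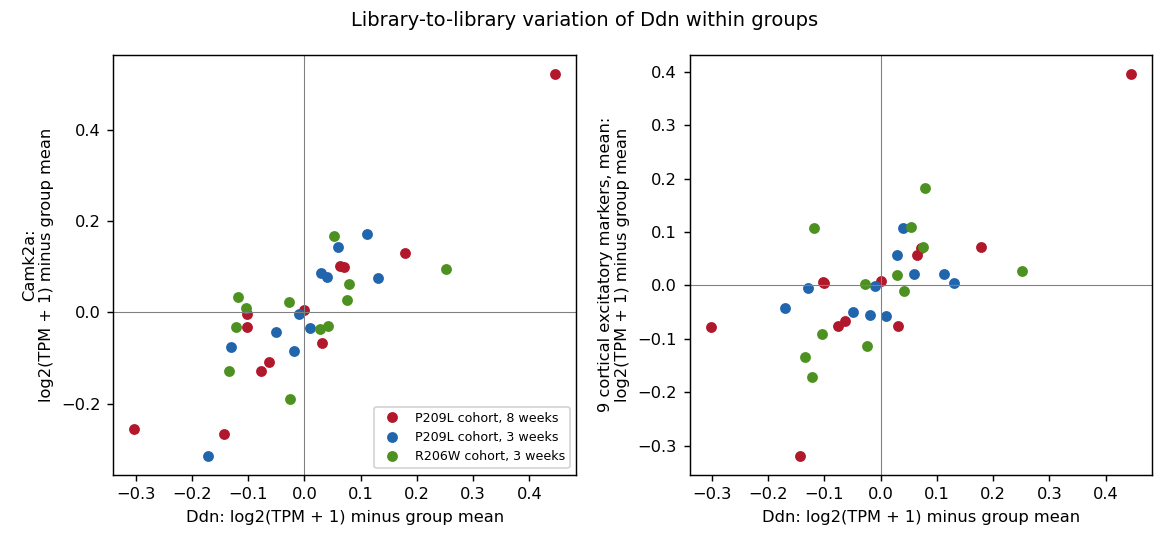
Deviation of Ddn from its group mean (horizontal axis, log2(TPM + 1)) against that of Camk2a (left) and of the mean of 9 cortical excitatory markers (right), 1 point per library, coloured by cohort. Points rise together in both panels, and 1 library of the 8-week cohort, WT control ASO replicate 3, lies alone at the upper right.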

How the data were processed

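Total RNA of brain was made into stranded libraries, per the labels' protocols. The authors deposited 1 table of TPM, made with Trim Galore, STAR 2.7.1a, GATK 4.0.4.0 and RSEM on mm10, per the submitters' processing notes. The annotation, filters and strand setting are not given in the sources used here, and depth is unknown. Coordinates came from a RefSeq table of the same build. The cohort of a 3-week WT library was read from the run of library numbers that its title belongs to.

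Tests ran in limma 3.58.1 (R 4.3.3), with a trended empirical Bayes prior and two-sided, on log2(TPM + 1), a scale that understates changes of low genes. Genes whose mean fell under 1 TPM were dropped from a fit. Called means a Benjamini-Hochberg adjusted p, over every gene of the contrast, below 0.05. Each cohort was fitted alone for its own values, while averages and the age contrast used 1 model of all 35 libraries with a mean per group. Averages of the 5 transcripts were also tested by two-sided exact permutation within cohorts, 15 tests in all, unadjusted. Correlations used 100000 permutations within groups. The fits were tested on simulated data with 200 genes changed and independent noise for each gene and library. Variation that genes share from library to library was not simulated, so that test does not cover it.

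The 5 transcripts and all lists were chosen with earlier results of these data known. Named were the 5 in every contrast, up to 4 called genes of a list by smallest p, the 5 genes most like Ddn and the 3 most like each other transcript, genes that start within 100 kb of Ddn, and Hnrnph2. Replicate numbers were taken to pair samples where every pair's correlation was over 0.1. This rule was met between Hnrnph2-ASO mutants and control-ASO WT at 8 weeks (0.12 to 0.24) and in the R206W cohort (0.10 to 0.20). No other contrast met it. The animal-name stems do not follow this rule, since no numbered pair that met it shares a stem. In the R206W cohort, mutants and WT with the Hnrnph2 ASO share stems by replicate number, with correlations of 0.02 to 0.17. Alternatives were the pseudocount, the filter, 2 rescalings, the trend, a replicate block, a cerebellar covariate, the groups in the fit and leaving out each library. Replicate blocks for list counts, differences between cohorts and correlations without 1 library were added after seeing the data.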

Additional observations from a re-analysis of the deposited data

How the results depend on the processing

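The fall of Ddn with the Hnrnph2 ASO in mutants kept its direction and its call in the 3-cohort average under every alternative run, from -1.09 to -1.003 when each library was left out. The ASO effect on Ddn in WT lay near 0 and changed sign, at -0.0139 with median-ratio rescaling, -0.0014 without mitochondrial genes and -0.0258 with the cerebellar covariate, and between -0.0436 and 0.0811 when each library was left out (P209L cohort at 3 weeks -0.0594 to 0.0821, and 0.10 with the cerebellar covariate; 8 weeks -0.26 to 0.11). With the cerebellar covariate the age difference of Ddn was 0.22, that of Camk2a 0.0023, and mutants against WT with the Hnrnph2 ASO gave -0.0724 for Nrgn and -0.14 for Ddn at 8 weeks. With median-ratio rescaling the age difference of Map2 was 0.0032. When each library was left out, the age difference of Ddn lay between 0.0611 and 0.15 and that of Map2 between -0.10 and 0.007, the ASO effect in WT between -0.083 and 0.0485 for Camk2a and between -0.0334 and 0.11 for Map2, and the Camk2a to Camk2b ratio effect of the ASO in mutants between -0.0072 and 0.036. The unadjusted exact permutation p of Nrgn for the ASO in WT lay between 0.003 and 0.0193 when each library was left out, and that for mutants against WT with the Hnrnph2 ASO, 0.0495, between 0.0075 and 0.129. The exact p of Camk2a or Camk2b fell under 0.05 only without single libraries, to 0.027 at the lowest for Camk2a and 0.003 for Camk2b, both without R206W Hnrnph2 ASO replicate 3. The count of other dendritic mRNAs called for the ASO in mutants, 6, lay between 2 and 6 when each library was left out, and was 7 with the replicate block. It was 2 without P209L Hnrnph2 ASO replicate 2 at 3 weeks, and 3 without P209L control ASO replicate 2 at either age, without P209L Hnrnph2 ASO replicate 2 at 8 weeks or without R206W control ASO replicate 1. For mutants against WT with the Hnrnph2 ASO the count, 0, lay between 0 and 1, with 1 without P209L Hnrnph2 ASO replicate 3 at 8 weeks or WT Hnrnph2 ASO replicate 3 of the P209L cohort at 3 weeks. The cause was not tested for any of these. With the replicate block the count for mutants against WT with the Hnrnph2 ASO was 1. The age differences with it were -0.15 for Camk2b and -0.21 for Nrgn, neither called. Replicate numbers do not link the cohorts, so the block cannot decide these. In contrasts that met the correlation rule, the block changed no call of the 4 transcripts other than Ddn, which has no test there. TPM keeps no read totals, so precision comes from the spread of 2 or 3 libraries alone.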
